A study of Mus musculus with 48 samples.

Results

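Bulk RNA-seq libraries of mouse hypothalamus with every stressor of the study were compared with libraries without any, both from its late period. In the set with all stressors the mice were kept in hind limb unloading at 85 dBA and 0.9 atm, and in the set with none they moved freely at 10 dBA and normal pressure. The members were the 12 late libraries with these labels, 6 in each set, out of 48 libraries in 8 series of 6. They were chosen by the treatment label and by no measured value. All were labelled C57BL/6, and the submitters' design text describes C57BL/6N males. The labels give the late mice an age of 3 months, while the design text gives 2 months for the mice of the study. Each library was a pool of RNA from the hypothalamus of 3 mice and carries a title number, 1, 5, 9, 13, 17 or 21, for which the labels give no unit.

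Since the loud mice were also the low-pressure mice, noise and pressure cannot be told apart. Each late condition was 1 series, so a condition cannot be told apart from anything else that the 6 libraries of its series shared, and p-values reflect only how far these pools scattered. The 2 other late series carried noise with low pressure in freely moving mice (noise alone below) or unloading at 10 dBA and normal pressure (unloading alone). The files hold RPKM, read counts divided by gene length and by library depth. Read totals recovered from the spacing of low RPKM values lay between 36060000 and 40860000 in the set with all stressors and between 33290000 and 48260000 in the set with none.

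Hind limb unloading lifts the tail so that the hind limbs carry no weight, and it is used on the ground as a model of weightlessness. The hypothalamus sets hunger, water balance, body temperature, hormone release and daily rhythms. In its arcuate nucleus, neurons that make Agrp and Npy drive feeding, and neurons that make Pomc and Cartpt restrain it. Its paraventricular and supraoptic neurons make vasopressin (Avp) and oxytocin (Oxt), and paraventricular Crh starts the hormonal stress response that ends in glucocorticoid release. The tissue label was checked against defining markers: Hcrt, made in the lateral hypothalamus, lay between 123 and 323 scaled RPKM over the 12 libraries, and Nkx2-1, a transcription factor of the developing hypothalamus, lay between 4.91 and 11.5 scaled RPKM.

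The sets differed in the part of the RPKM taken by the 13 mRNAs encoded by mitochondrial DNA, which supply core subunits of the respiratory chain. With no stressor these mRNAs took 8.95% to 13.5% of the deposited RPKM, with a median of 11.9%. With all stressors they took 10.49% at the lowest, 38.9% at the median and 50.04% at the highest. The means were 33.6% ± 17.3 (SD, n = 6) and 11.5% ± 1.68 (SD, n = 6), a difference of 22.2 percentage points (exact permutation test, two-sided, p = 0.0108; as 6 pairs by title number, exact sign-flip test, p = 0.0625). The sets overlapped: numbers 5 and 21 of the set with all stressors, at 10.49% and 16.0%, were close to the quiet series, while numbers 1, 9, 13 and 17, at 31.0%, 46.9%, 50.04% and 47.4%, exceeded every late quiet library (highest 16.6%). Noise alone gave 28.3% ± 8.55 (SD, n = 6) and unloading alone 14.0% ± 1.32 (SD, n = 6). Since this share moved with the contrast, gene counts are given below also from numbers 5 and 21 alone on the side with all stressors, and its part in the results was not tested beyond the fits named.

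Values below are scaled RPKM, deposited RPKM divided by 1 factor per library taken over genes of the nuclear genome. RPKM is per length, so levels of different genes can be set side by side. Differences are log2 differences of scaled RPKM + 0.5 with standard errors from 1 limma fit over all 48 libraries with terms for series and title number. A gene was called when its Benjamini-Hochberg adjusted p was below 0.05. This scale understates the change of low genes.

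Differences in both directions reached most of the genes tested. Of 13661 genes tested, 9281 (67.9%) were called, 4467 higher (32.7%) and 4814 lower (35.2%) with all stressors. At least 2-fold changes made up 7.39% of the genes, 672 higher (4.92%) and 338 lower (2.47%). In 5622 genes (41.2%) the 6 and 6 libraries did not overlap. The median difference over all genes was -0.02. On the deposited values it was -0.27, and there 2483 genes were higher (18.1%) and 6409 lower (46.8%). With the mitochondrial share as a covariate 6209 genes were called (45.5%), 3023 higher (22.1%) and 3186 lower (23.3%). Quantile normalization gave 9262 (67.7%), 4400 higher (32.2%) and 4862 lower (35.5%). 1833 genes were higher and 2877 lower in all 4 of these fits. With numbers 5 and 21 as the only libraries with all stressors, 5541 genes were called (40.6%), 2657 higher (19.4%) and 2884 lower (21.1%). A share of called members in a gene group is therefore read against these backgrounds.

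The largest rises were led by hypothalamic peptide genes. They were Agrp (3.72), Avp (2.78), Npy (2.56), the acute-phase glycoprotein Lrg1 (2.52), the secreted airway protein Bpifa1 (2.51), the C2-domain gene Doc2g (2.25), S6 kinase 2 gene Rps6kb2 (2.19), prolactin-releasing peptide Prlh (2.18), interferon-inducible Ifi27l2a (2.13), the calcium-binding S100a4 (2.12), galectin-4 gene Lgals4 (2.11) and the translation repressor Eif4ebp3 (2.08), all log2 differences. The largest falls were the orphan receptor Gpr165 (-2.79), the somatostatin receptor Sstr1 (-2.34), the GABA-A receptor subunit Gabrb2 (-2.27), the phosphoinositide phosphatase Sacm1l (-2.19), the c-Maf-inducing protein Cmip (-2.19), the clustered protocadherins Pcdhac2 (-2.13), Pcdhgc3 (-2.06) and Pcdhgc4 (-2.03), the prolyl endopeptidase-like Prepl (-2.11), the deubiquitinase Usp33 (-2.11), the potassium channel Kcna3 (-2.02) and the ADP-ribosylation-factor-like Arl10 (-2.01). The adjusted p of limma lay between 2.39e-12 (Gabrb2) and 4.31e-05 (Bpifa1), and in all 24 the 6 and 6 libraries did not overlap. These 24 were taken for their size in this comparison, so that their separation is a description. Some share exon sequence with a neighbour, and whether reads were counted by strand is not given in the sources used here: Doc2g shares 63.5% of its exon length with another annotated gene, Eif4ebp3 67.3%, S100a4 51.7%, Pcdhac2 48.6%, Sacm1l 48.2%, Pcdhgc3 38.5%, Pcdhgc4 37.9%, Rps6kb2 23.7%, Usp33 15.3%, Agrp 11.3% and Prepl 10.8%, and their values are uncertain to that extent.

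**Figure D1:**
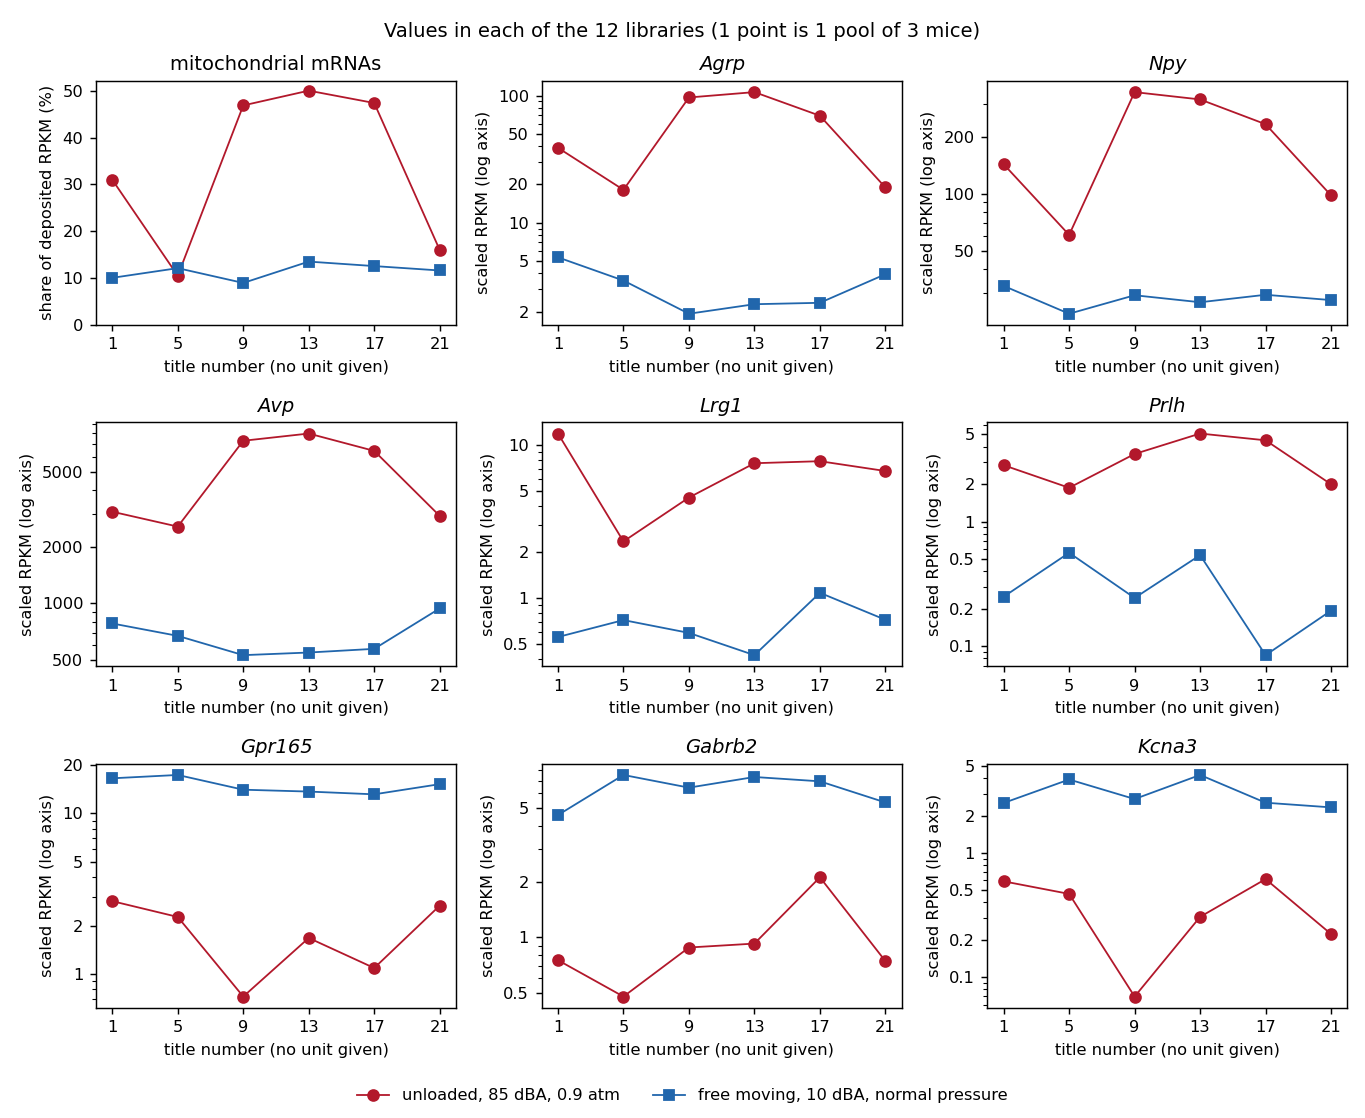
Each point is 1 library (pool of 3 mice), placed at its title number, with all stressors in red circles and none in blue squares. The upper left panel gives the share of deposited RPKM from mitochondrial mRNAs in percent, and the others give scaled RPKM on a log axis. The sets overlap in the share at number 5 and in no panel of a gene, and Agrp, Npy and Avp are highest at 9, 13 and 17, where the share is also highest.

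The stretches just before the transcription starts of 5 of these genes are shown because the 3 peptide and inflammation genes were among the largest rises and the 2 receptor genes among the largest falls. They are the 150 bases before the RefSeq start on GRCm38.p6, read 5′ to 3′ along the gene's strand, with capitals marking matches to the letters searched. The window of Avp lies at chr2:130582589-130582738 on the minus strand, Npy at chr6:49822560-49822709 on the plus strand, Lrg1 at chr17:56121947-56122096 on the minus strand, Gabrb2 (the first listed of 3 starts) at chr11:42420290-42420439 on the plus strand and Gpr165 at chrX:96713318-96713467 on the plus strand. By the GENCODE gene positions given below, the window of Gabrb2 lies inside the gene, and those of Lrg1 and Gpr165 overlap the gene in part.
Avp: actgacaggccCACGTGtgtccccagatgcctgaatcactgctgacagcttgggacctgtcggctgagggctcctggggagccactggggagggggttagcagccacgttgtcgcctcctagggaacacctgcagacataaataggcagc
Npy: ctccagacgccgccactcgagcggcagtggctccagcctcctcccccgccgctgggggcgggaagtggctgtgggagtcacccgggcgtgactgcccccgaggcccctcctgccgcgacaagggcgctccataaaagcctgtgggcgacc
Lrg1: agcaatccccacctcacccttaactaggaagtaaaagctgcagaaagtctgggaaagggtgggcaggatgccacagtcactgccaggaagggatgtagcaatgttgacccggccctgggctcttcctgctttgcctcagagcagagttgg
Gabrb2: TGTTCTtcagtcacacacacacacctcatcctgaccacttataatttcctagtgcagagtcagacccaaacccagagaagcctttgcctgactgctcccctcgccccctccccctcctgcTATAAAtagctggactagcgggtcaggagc
Gpr165: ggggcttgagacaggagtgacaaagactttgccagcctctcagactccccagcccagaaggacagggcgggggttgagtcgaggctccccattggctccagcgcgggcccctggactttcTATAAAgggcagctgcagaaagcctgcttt
Letters were searched on both strands of 32841 windows of this length in the RefSeq table. TGACG, a core found in cAMP response elements, occurs in 13.3% of them. The E-box CACGTG, bound by clock proteins among others, occurs in 4.3%. The core found in glucocorticoid response elements, AGAACA, occurs in 9.62%. The TATA box, searched as TATAAA, occurs in 7.57%. These searches do not overlap one another. Avp held an E-box 139 to 134 bases before its start. Gabrb2 held the glucocorticoid core, read on the other strand as TGTTCT, 150 to 145 bases before its start and a TATA box 30 to 25 bases before it, and Gpr165 held a TATA box at the same distance. Npy and Lrg1 held none of these letters in the window. Of the 12 rises 8 had an entry, of which 0 held the cAMP core, 1 the E-box, 0 the glucocorticoid core and 2 the TATA box. Of the 12 falls 7 had an entry, of which 1, 0, 1 and 2 held them in the same order.

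Among hunger and satiety peptides 8 of 10 tested members rose and none fell, with a median log2 difference of 0.85 against -0.02 over all genes. Agrp, Npy and Prlh moved most. Agrp (ENSMUSG00000005705.10, chr8:105566698-105637393 on GRCm38), an inverse agonist of melanocortin receptors, stood at 1.92, 2.93 and 5.34 scaled RPKM (lowest, median, highest) with no stressor and at 18.1, 54.1 and 106 with all stressors. Every library with all stressors exceeded the highest without by more than the whole range of the latter, and the fitted difference was 3.72 ± 0.379 (SE), or 13.2-fold (limma, adjusted p = 7.75e-10). In bulk tissue, fewer cells of a type and less RNA per cell cannot be told apart, here and below. Npy (ENSMUSG00000029819.6, chr6:49822710-49829507), the feeding peptide made by the same neurons, stood at 23.2, 28.2 and 32.5 with none and at 60.5, 188 and 345 with all stressors, a difference of 2.56 ± 0.275 (limma, adjusted p = 1.8e-09). Prlh (chr1:90953108-90954027), a peptide that restrains feeding, stood at 0.0849, 0.247 and 0.562 with none and at 1.87, 3.16 and 5.08 with all stressors.

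Cartpt, Pomc, Gal and the lateral hypothalamic peptides moved less than Agrp, Npy and Prlh, and not as 1 group. Cartpt rose by 0.93 ± 0.167 (limma, adjusted p = 8.16e-06), from 39.1, 47.1 and 67.5 scaled RPKM to 68.9, 86.5 and 158, with no overlap. Pomc, the precursor of alpha-MSH, was not called, at 24.1, 32.1 and 46.9 scaled RPKM with none and 19.5, 54.4 and 86.3 with all stressors (0.57 ± 0.361). It was higher with all stressors in 3 of 6 numbers. Gal, the galanin gene, rose by 0.76, and with the trend on gene length and GC content removed it stood at -0.13. Hcrt, the orexin precursor, rose by 0.57 ± 0.142, from 123, 192 and 223.5 to 186, 268 and 323 with overlap. On the deposited values its difference was 0.29 (limma, adjusted p = 0.172), under quantile normalization 0.13 (limma, adjusted p = 0.494) and with length and GC trends removed -0.40 (limma, adjusted p = 0.0642). Pmch, the melanin-concentrating hormone gene, was not called (-0.53 ± 0.329); it shares 58.1% of its exon length with a gene on the other strand. Of the list's 10 members 6 were higher and 0 lower with numbers 5 and 21 alone, and 7 were higher and 1, Pmch, lower under quantile normalization.

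Of 14 tested receptors that read these peptides and other signals of energy balance 2 were higher and 5 lower (median -0.20), against 32.7% higher and 35.2% lower over all genes, so that the falls were near the background. The leptin receptor Lepr (0.01) and the melanocortin receptor Mc4r (-0.09) were not called, and both were low, with Lepr between 0.449 and 0.866 scaled RPKM over the 12 libraries. Cnr1, the cannabinoid receptor, fell from 11.0, 11.9 and 14.3 scaled RPKM to 3.39, 6.85 and 8.43, with no overlap (-0.97 ± 0.163). Orexin receptors went opposite ways, with Hcrtr1 at 0.78 and Hcrtr2 at -0.84. Igf1r, the receptor of insulin-like growth factor, fell by 0.85 on the log2 scale.

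Vasopressin, oxytocin and the releasing hormones formed another peptide group that rose, with 7 of 8 tested members higher, 0 lower and a median of 1.04. Avp (ENSMUSG00000037727.6, chr2:130580620-130582554), the antidiuretic hormone, stood at 531, 623.5 and 941 scaled RPKM with none and at 2561, 4768 and 7994 with all stressors (2.78 ± 0.297, limma, adjusted p = 1.76e-09). Oxt, its neighbour on chromosome 2 (chr2:130576173-130577054), stood at 409, 485 and 676 and at 1155, 1946 and 2886 (1.81 ± 0.23, limma, adjusted p = 3.5e-08). Both genes were thus already among the abundant hypothalamic transcripts without stressors, and neither overlapped between the sets. Sst, the somatostatin gene, rose by 0.95 from 202, 225 and 247 to 289, 428 and 642, but with length and GC trends removed it stood at 0.0025 (limma, adjusted p = 0.979). Gnrh1, which controls the gonadal axis, rose by 1.71 with an overlap of the sets. Th, which marks dopamine neurons, was at 0.07 and not called. The list kept 5 higher and 0 lower members with numbers 5 and 21 alone, and 3 of 8 with the trend on length and GC content removed.

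Crh (chr3:19693401-19695396), which starts the stress axis, rose by 0.72 ± 0.159 (limma, adjusted p = 0.000142), less than Avp or Oxt. Its values were 3.87, 4.25 and 5.53 scaled RPKM with none and 5.22, 7.77 and 9.90 with all stressors, so that the sets overlapped. With length and GC trends removed the difference was 0.22 (limma, adjusted p = 0.191). Trh, the thyrotropin-releasing hormone gene, rose by 0.52 and was not called on the deposited values, where it stood at 0.25 (limma, adjusted p = 0.249), and with length and GC trends removed it stood at -0.070 (limma, adjusted p = 0.755).

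The receptors of adrenal steroids fell. Of 8 tested stress axis receptors and binding proteins 1 was higher and 4 were lower. Nr3c1, the glucocorticoid receptor, stood at 8.878, 9.50 and 10.53 scaled RPKM with none and at 4.36, 4.70 and 4.93 with all stressors, a fall of 0.97 on the log2 scale (SE 0.0977; limma, adjusted p = 6.27e-10). The range within each set was narrow beside the gap between them. Nr3c2, the mineralocorticoid receptor, fell from 3.71, 3.90 and 4.05 to 1.81, 2.71 and 2.87. Of 19 genes known to respond to glucocorticoids 4 rose and 5 fell, against 32.7% and 35.2% over all genes. The metallothionein Mt1 rose by 1.12 and the sulfotransferase Sult1a1 by 1.16, Klf9 and Ddit4 fell by 0.93 and 0.55 on the log2 scale, and the widely used reporters of the receptor, Fkbp5 (0.18 ± 0.182) and Sgk1 (-0.75 ± 0.357), were not called. Fkbp5 ranged from 2.80 to 12.6 scaled RPKM with all stressors and from 3.76 to 5.92 with none.

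Opioid, tachykinin and other peptide genes went the same way as the hunger peptides, with 10 of 15 higher and 0 lower (median 0.53), though 7 were higher and 3 lower with length and GC trends removed. Penk, the enkephalin precursor, rose from 51.9, 69.2 and 84.8 scaled RPKM to 106, 128 and 270.4 (1.13 ± 0.29), and Npff rose by 1.95 with an overlap of the sets. Tac2 rose by 0.82 and Tac1 by 0.80, both without overlap. With the mitochondrial share as a covariate Penk (0.70), Tac1 (0.52) and Npff (0.59) were not called. Penk and Tac1 are also abundant in the striatum, and both are among 12 striatum markers whose summed level was 131 to 239.9 scaled RPKM with none and 223 to 548 with all stressors (5 higher, 1 lower). Of the other 10 markers Ppp1r1b (1.58), Rgs9 (1.27) and Gpr6 (0.59) were higher and Pde10a (-0.67) lower, while the dopamine receptors Drd1 (0.06) and Drd2 (-0.17) were not called. The part of striatal tissue in these rises was not tested. The machinery that cuts and packs peptides did not share this direction: of 11 granin and processing genes 3 rose, among them Pcsk1n (0.93), an inhibitor of a prohormone convertase, and Chga (0.64), and 5 fell, among them Scg3 (-0.41) and the convertase Pcsk2 (-0.39). Under quantile normalization Pcsk1n was at -0.01, and with length and GC trends removed Pcsk2 was at -0.088 and not called.

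Immediate early genes, which are transcribed within minutes of neuronal activity, were mostly lower with all stressors: 13 of 19 fell and 2 rose, with a median of -0.72. Fos stood at 8.69, 16.1 and 23.8 scaled RPKM with none and at 4.88, 6.25 and 8.02 with all stressors (-1.24 ± 0.297, limma, adjusted p = 0.00038). Nr4a3, an orphan nuclear receptor, fell from 1.93, 3.10 and 3.59 to 0.366, 0.787 and 0.943, and Fosl2 fell by 1.05 on the log2 scale. Neither overlapped. The 2 that rose were Npas4, which answers calcium entry in neurons, from 1.70, 2.32 and 3.32 to 4.98, 5.86 and 7.69 (1.18 ± 0.191), and Jund, from 64.4, 76.9 and 86.7 to 126, 165.5 and 228. The counts were 2 higher and 7 lower with numbers 5 and 21 alone. The labels used here do not say how or when the tissue was taken relative to the stressors.

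A few genes of inflammation rose. Lrg1 (ENSMUSG00000037095.8, chr17:56119678-56122001), a secreted glycoprotein of the acute-phase response that is also made by vessels, stood at 0.422, 0.653 and 1.08 scaled RPKM with none and at 2.35, 7.21 and 11.9 with all stressors (2.52 ± 0.253, limma, adjusted p = 5.52e-10). Its lowest library with all stressors, number 5, was above every library without. Of 12 tested acute-phase and vascular inflammation genes 6 rose and 1 fell (median 0.39), against 32.7% higher and 35.2% lower over all genes. Another 8 of the 20 listed, among them Il6, Tnf and Il1b, were too low to be tested. Lcn2, lipocalin-2, rose by 1.26 and the chemokine Cxcl10 by 0.82, both with overlapping sets. With the share as a covariate 2 of the 12 were higher and 1 lower, against 22.1% and 23.3% over all genes. Lcn2 was not called there (1.00). Numbers 5 and 21 alone gave 2 higher genes of the 12, which was not above the 19.4% over all genes. Lrg1 stood there at 2.10 ± 0.369 (limma, adjusted p = 0.000119).

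Interferon-stimulated genes rose in 14 of 16 tested members and fell in 2 (median 0.65). Ifitm3, which restricts viral entry, stood at 16.3, 18.9 and 20.8 scaled RPKM with none and at 27.9, 60.0 and 102 with all stressors (1.60 ± 0.208). Irf7, a transcription factor of the interferon response, rose by 1.39 and Isg15, a ubiquitin-like modifier, by 1.24, both without overlap. Ifit2 was among those that fell (-0.51). All 13 tested genes of MHC and antigen presentation rose (median 0.73), with the class II gene H2-Ab1 at 1.37 and the immunoproteasome subunit Psmb9 at 1.22. From numbers 5 and 21 alone, 7 of 16 interferon and 6 of 13 presentation genes were higher and 1 and 0 lower.

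Blood cell markers moved with these groups. All 7 tested were higher (median 1.60), and their summed level was 551 to 884 scaled RPKM with none and 1056 to 4246 with all stressors. The beta globin Hbb-bs stood at 170, 207 and 258 and at 353, 693 and 1383, and the neutrophil genes S100a8 and S100a9 were at 1.88 and 1.81. Globin pairs are near-identical in sequence, so that reads could be split between them. With the mitochondrial share as a covariate 2 of 7 were higher, and with numbers 5 and 21 alone 0 of 7. Of 13 microglia markers 6 were higher, among them Aif1 (1.19) and Tyrobp (1.05), and 4 lower, against 32.7% and 35.2% over all genes. With length and GC trends removed 2 were higher and 7 lower, and Tyrobp stood at 0.087 (limma, adjusted p = 0.391). Their part in the inflammatory and interferon genes was not tested.

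Genes of protein synthesis rose as a group. All 40 tested cytosolic ribosomal protein genes were higher, 26 of them at least 2-fold, with a median of 1.13. Their differences ran from 0.51 for Rpl3 to 1.82 for Rpl38. Rpl8 stood at 315.5, 359 and 394 scaled RPKM with none and at 562, 718 and 970.5 with all stressors, and Rpl27a at 136, 148 and 158 and at 239.9, 337 and 439.5. Neither gene overlapped between the sets. On the deposited values 39 were higher and 0 lower, with the mitochondrial share as a covariate 40 (median 0.62), with numbers 5 and 21 alone 39 (median 0.81), and with length and GC trends removed 40 (median 0.82). Of the translation genes among the largest rises, Rps6kb2, which phosphorylates ribosomal protein S6, and Eif4ebp3, which blocks the cap-binding factor, are known for opposite effects on translation. Proteasome subunits rose in 13 of 20 and fell in 3 (median 0.29).

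Genes of the respiratory chain encoded in the nucleus rose in 26 of 33 tested members and fell in 4 (median 0.63). Cox4i1, a subunit of cytochrome oxidase, stood at 429, 551 and 602 scaled RPKM with none and at 822, 1054 and 1358 with all stressors, and Ndufb10, a subunit of complex I, rose by 0.85. The 4 that fell were Uqcrc2 (-0.79), Sdha (-0.54), Ndufs1 (-0.39) and Atp5a1 (-0.32). Under quantile normalization 19 of the 33 rose and 7 fell, and with numbers 5 and 21 alone 19 rose and 3 fell. With length and GC trends removed 21 rose and 5 fell (median 0.26), with Cox4i1 at 0.36 and Ndufb10 at 0.21. The 13 mRNAs of mitochondrial DNA were all higher, by 1.93 (mt-Nd3) to 2.35 (mt-Atp8). Quantile normalization called 4 of them, numbers 5 and 21 alone 0, and the fit with their own share as a covariate 0 by its construction. Ppargc1a, a co-activator that promotes mitochondrial biogenesis, fell from 3.86, 4.97 and 5.90 to 1.94, 2.53 and 2.97 (-0.86 ± 0.0988, limma, adjusted p = 7.27e-09).

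**Figure D2:**
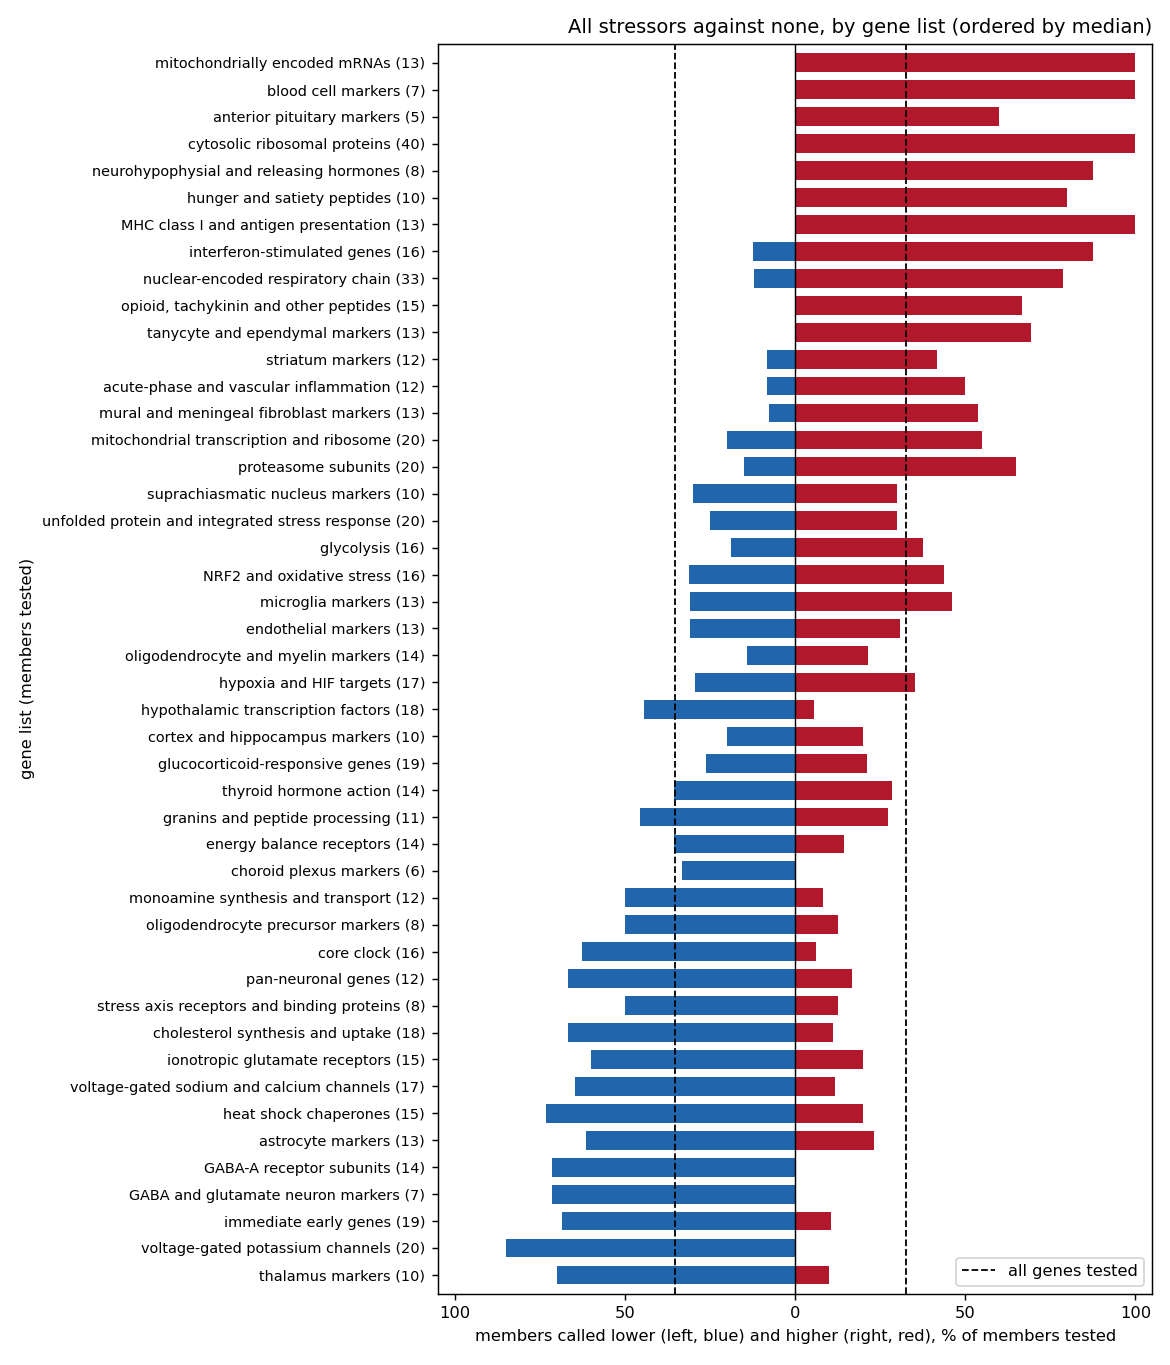
Bars give the percent of each list's tested members (number in brackets) called lower (left, blue) and higher (right, red) with all stressors against none, for lists with 5 or more tested members. Dashed lines are the shares over all genes tested, 35.2% lower and 32.7% higher. Lists are ordered by their median log2 difference. At the top lie mitochondrially encoded mRNAs and blood cell markers, followed by ribosomal, anterior pituitary and peptide lists. At the bottom lie thalamus markers, potassium channels, immediate early genes, GABA and glutamate neuron markers and GABA-A subunits.

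The falls were led by receptors and channels of neurons. Gpr165 (ENSMUSG00000031210.10, chrX:96713441-96719388), a receptor without a known ligand, stood at 13.1, 14.6 and 17.3 scaled RPKM with none and at 0.722, 1.97 and 2.84 with all stressors (-2.79 ± 0.256, limma, adjusted p = 1.17e-10). The gap between the sets was wider than the range of either. Sstr1 (chr12:58211772-58214444), an inhibitory somatostatin receptor, fell from 6.35, 8.20 and 9.74 to 0.201, 1.36 and 3.00. The values of its ligand Sst are given above.

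All called GABA-A receptor subunits fell, 10 of 14, with a median of -0.62. These proteins form the chloride channel through which GABA inhibits neurons. Gabrb2 (ENSMUSG00000007653.12, chr11:42419757-42629028) stood at 4.58, 6.70 and 7.53 scaled RPKM with none and at 0.479, 0.817 and 2.11 with all stressors (-2.27 ± 0.168, limma, adjusted p = 2.39e-12). Gabrb1 fell by 1.07 on the log2 scale. Gabrd, the subunit of receptors outside synapses, was at 0.91 and not called. With numbers 5 and 21 alone 9 fell and 0 rose, and with length and GC trends removed 10 fell and 1 rose.

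Voltage-gated potassium channels, which end action potentials and set firing patterns, fell in 17 of 20 and rose in 0 (median -0.76). Kcna3 (chr3:107036169-107038070) stood at 2.33, 2.63 and 4.24 scaled RPKM with none and at 0.0698, 0.387 and 0.616 with all stressors, and Kcna1 at 3.31, 4.29 and 4.77 and at 0.744, 1.61 and 1.76. Kcna4 and Kcnc2 fell by 1.06 and 1.24 on the log2 scale. None of these 4 overlapped. With numbers 5 and 21 alone 11 were lower, and with length and GC trends removed 15 (median -0.51).

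Sodium and calcium channels fell in 11 of 17 members and rose in 2 (median -0.45), with Scn1a at -1.26 and Scn2a at -1.23. With the mitochondrial share as a covariate 4 fell and 2 rose, and with numbers 5 and 21 alone, which leaves 2 libraries on that side, 5 fell and 1 rose. Calls over all genes were also fewer in these fits, at 45.5% and 40.6% against 67.9%. Ionotropic glutamate receptors fell in 9 of 15 and rose in 3, with the NMDA receptor subunit Grin2b going from 3.94, 5.03 and 5.99 scaled RPKM to 0.752, 1.29 and 2.47 (-1.51 ± 0.218), and Grik5 at 0.73.

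Genes for the transmitters themselves were lower as well: 5 of 7 GABA and glutamate neuron markers fell and 0 rose. Gad2, which makes GABA, stood at 51.1, 62.5 and 66.8 scaled RPKM with none and at 19.3, 23.5 and 36.3 with all stressors (-1.27 ± 0.155), and the glutamate transporter Slc17a6 fell by 1.25 on the log2 scale. Slc17a6 also marks the thalamus, which borders the hypothalamus. Pan-neuronal genes fell in 8 of 12, with Map2 at -0.93, and rose in 2, Uchl1 (0.47) and Tubb3 (0.42). Under quantile normalization Uchl1 stood at -0.35 and all 12 fell.

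The protein-folding genes moved down and the cold-induced RNA-binding genes up. Of 15 heat shock chaperones 11 fell and 3 rose (median -0.46). Hspa4l stood at 15.3, 18.4 and 22.0 scaled RPKM with none and at 8.49, 8.74 and 9.89 with all stressors, and Dnajb1 fell by 1.07 on the log2 scale. The heat-inducible Hspa1a was at -1.51. All 3 cold-inducible genes were higher, Rbm3 by 0.78, Cirbp by 0.77 and Srsf5 by 0.26. On the deposited values Srsf5 was at -0.01. In the fit from numbers 5 and 21 alone 7 chaperones were lower and 0 higher, and 2 cold-inducible genes were higher. The labels used here give no body or room temperature.

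Genes of cholesterol synthesis and uptake fell in 12 of 18 and rose in 2 (median -0.42). Sqle, the squalene epoxidase of the pathway, stood at 28.8, 30.2 and 31.2 scaled RPKM with none and at 14.6, 17.5 and 22.6 with all stressors, without overlap, and fell by 0.74 on the log2 scale. From numbers 5 and 21 alone 10 were lower and 1 higher. Counts for hypoxia, oxidative stress and unfolded protein were near the shares over all genes, 32.7% higher and 35.2% lower, and showed no single direction. Hypoxia targets rose in 6 and fell in 5 of 17, with Ankrd37 at 1.18 and Pfkfb3 at -1.01. Genes of the NRF2 and oxidative stress list rose in 7 and fell in 5 of 16, with Gpx4 at 1.12 and Sod1 at 1.00. Unfolded protein and integrated stress genes rose in 6, among them Ddit3 (1.31), and fell in 5 of 20.

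Core clock genes were lower in 10 of 16 and higher in 1, Ciart (0.46), with a median of -0.33. Clock itself fell from 5.01, 5.56 and 6.74 scaled RPKM to 2.69, 3.91 and 4.21 (-0.56 ± 0.101), but with length and GC trends removed it stood at -0.056 (limma, adjusted p = 0.488). Rora, which activates Arntl, fell by 1.01 on the log2 scale with overlapping sets. With numbers 5 and 21 alone 6 were lower and 1 higher, and with length and GC trends removed 7 and 0. If the title numbers were hours of a day, which the labels do not state, a 24-unit course could be fitted to the 6 libraries of each set. Under this assumption 0 of 13661 genes had a course that differed between the sets (0% called by limma, smallest adjusted p = 0.306 for Ttll6), 1528 having an unadjusted p below 0.05. With array weights, which count each library by its scatter, the same test called 3608. Per2 had a fitted peak-to-trough size of 2.17 with all stressors and 0.85 with none on the log2 scale (limma, adjusted p = 0.379), from 1 library at each number.

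Markers of glia and other cells moved in mixed ways. Astrocyte markers fell in 8 of 13 and rose in 3, with the bicarbonate transporter Slc4a4 going from 21.6, 22.0 and 23.4 scaled RPKM to 7.18, 10.3 and 11.2, the glutamate transporter Slc1a2 at -1.12, and the filament protein Gfap at 0.92. Tanycyte and ependymal markers rose in 9 of 13 and fell in 0, with a summed level of 108 to 132.5 with none and 141 to 241 with all stressors. Rax, a transcription factor of tanycytes, was at 1.53 with an overlap of the sets. With the mitochondrial share as a covariate 3 of these rose, and on the deposited values 6 rose and 2 fell. Of 14 oligodendrocyte and myelin markers 3 were higher, 2 lower and 9 not called (median -0.03), against 32.7% higher and 35.2% lower over all genes. Mbp (1.04) and Mobp (1.02) were among the higher and Ugt8a (-0.51) among the lower. Under the covariate Mbp was at -0.20 and Mobp at -0.23.

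Markers of tissue next to the hypothalamus also differed. Beside the striatum markers given above, the summed level of 10 thalamus markers was 222 to 350.2 scaled RPKM with none and 268 to 366 with all stressors (1 higher, 7 lower). The choroid plexus gene Ttr was not called (0.70, limma, adjusted p = 0.475), with a plexus sum of 12.4 to 345 with none and 13.8 to 41.4 with all stressors. Of 5 tested anterior pituitary markers 3 were higher, with sums of 2.15 to 6.22 and 3.60 to 26.2. All 4 retina genes were too low to be tested. The part of dissection in the results was not tested.

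The single stressors were set beside their combination. All 3 contrasts use the same late libraries without stressors. Noise alone against none called 8874 genes (65%), 4303 higher (31.5%) and 4571 lower (33.5%), and unloading alone called 3226 (23.6%), 1399 higher (10.2%) and 1827 lower (13.4%). For Agrp the difference from none was 3.72 with all stressors, 1.93 with noise alone and 1.28 with unloading alone. For Avp these were 2.78, 2.02 and 0.80, for Npy 2.56, 1.67 and 0.91, and for Lrg1 2.52, 0.60 and 1.30. Among the falls, Gpr165 gave -2.79, -2.87 and -1.61, Gabrb2 -2.27, -2.54 and -1.89, and Kcna3 -2.02, -1.998 and -1.83. These genes were taken for the size of the combined difference, so that the order of the 3 values is a description.

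**Figure D3:**
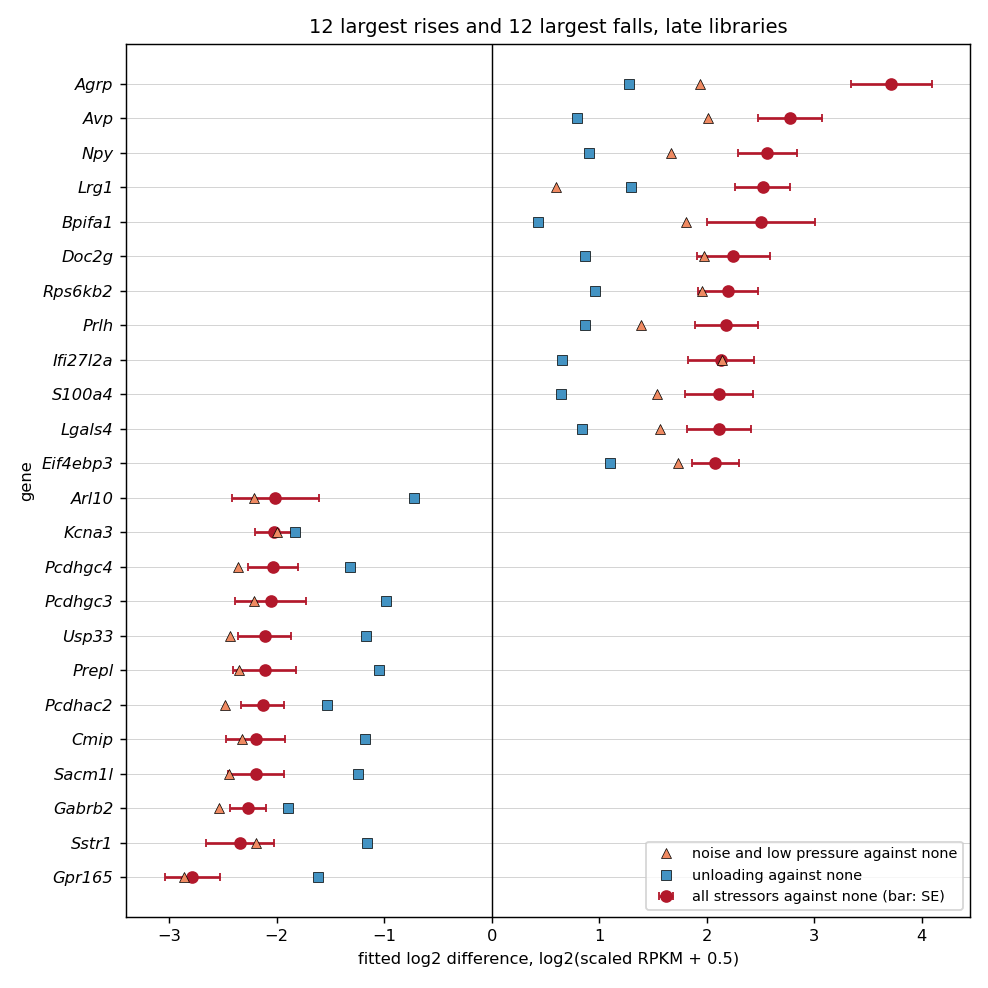
For the 12 largest rises and 12 largest falls the horizontal axis gives the fitted log2 difference from the late libraries without stressors. Red circles with SE bars are all stressors, triangles noise with low pressure alone and squares unloading alone. In 11 of the 12 rises the combined value lies to the right of noise alone, and in the falls it lies close to noise alone.

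Against noise alone, adding unloading changed few genes past the threshold. limma called 2 of 13661 genes (0.0146%), both higher, and 772 had an unadjusted p below 0.05. Lrg1 rose from 0.531, 1.33 and 2.01 scaled RPKM with noise alone to 2.35, 7.21 and 11.9 with all stressors, with no overlap (1.92, limma, adjusted p = 3.67e-05). Supv3l1, a helicase that degrades mitochondrial RNA, rose by 0.43 (limma, adjusted p = 0.000438). Agrp stood at 4.73, 16.1 and 20.0 scaled RPKM with noise alone and was 1.78 higher with all stressors, which did not pass the threshold (limma, adjusted p = 0.0762).

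Against unloading alone, adding noise and low pressure changed 5765 genes (42.2%), 2849 higher (20.9%) and 2916 lower (21.3%). Without number 13, 17 or 9 the count was 2484, 2973 or 2670, and with the share as a covariate it was 0. On the deposited values 924 were higher and 6238 lower.

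The combination departed from the sum of the single differences in 604 genes (4.42%), 384 upward (2.81%) and 220 downward (1.61%). A departure is the combined difference minus the sum of the 2 single ones on the log2 scale. On the deposited values 66 were upward and 534 downward. Array weights gave 5620, and the mitochondrial share as a covariate 1306 (9.56%). Without number 17 it was found in 90 genes, without 13 in 155, without 21 in 168 and without 1 in 330. The libraries without stressors enter both the departure and the choice of the largest rises and falls, so that for those genes it is given as a value with no test. For Gabrb2 it was 2.17: noise alone (0.397 to 1.74 scaled RPKM), unloading alone (1.09 to 1.65) and the combination (0.479 to 2.11) all lay at the same low level against 4.58 to 7.53 with none. Klhl11, a substrate adaptor of ubiquitin ligases, gave a departure of 2.17, also as a value with no test. Its medians were 1.00, 1.44 and 1.37 in the 3 stressed series and 6.52 with none. For Npy the departure was -0.01 and for Avp -0.03. Npas4 gave -1.28, being 1.17 higher with noise alone, 1.28 with unloading alone and 1.18 with both.

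The early series of the study give a further level for each gene. They are 2 series of free and 2 of unloaded mice, all at 10 dBA and normal pressure, and this comparison was added after the values had been seen. Agrp had medians of 34.6 and 30.2 scaled RPKM in the early free series and 38.6 and 49.99 in the early unloaded ones, against 54.1 late with all stressors and 2.93 late with none. Gpr165 had early medians of 1.14, 1.10, 2.19 and 1.29, against 1.97 and 14.6. The late mean with all stressors lay within the range of the 4 early means in 16 of the 24 largest rises and falls, and the late mean with none in 0, as a description of genes taken for their late difference. Over all genes, limma called 159 of 13661 (1.16%; 0.542% higher and 0.622% lower) between the late set with all stressors and the mean of the early free series, and 10593 (77.5%; 41.1% higher and 36.5% lower) between the late set with none and the same early libraries. Lrg1 differed from this pattern: it was 1.497 above the early free mean with all stressors (limma, adjusted p = 0.000432) and 1.02 below it with none (limma, adjusted p = 6.47e-05). Some other named genes were also called between the set with all stressors and the early free series. Among them were Klhl11 (0.61, limma, adjusted p = 0.0311), Kcna1 (0.60, limma, adjusted p = 0.0429) and Cyp51 (-0.29, limma, adjusted p = 0.0184). The early series also had a high mitochondrial share, with means of 20.5% to 44.5%, and its part was not tested. The early mice are listed at 2 months of age and the late mice at 3 months. Age, period and the set of libraries thus changed together between early and late, so that they cannot be told apart.

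**Figure D4:**
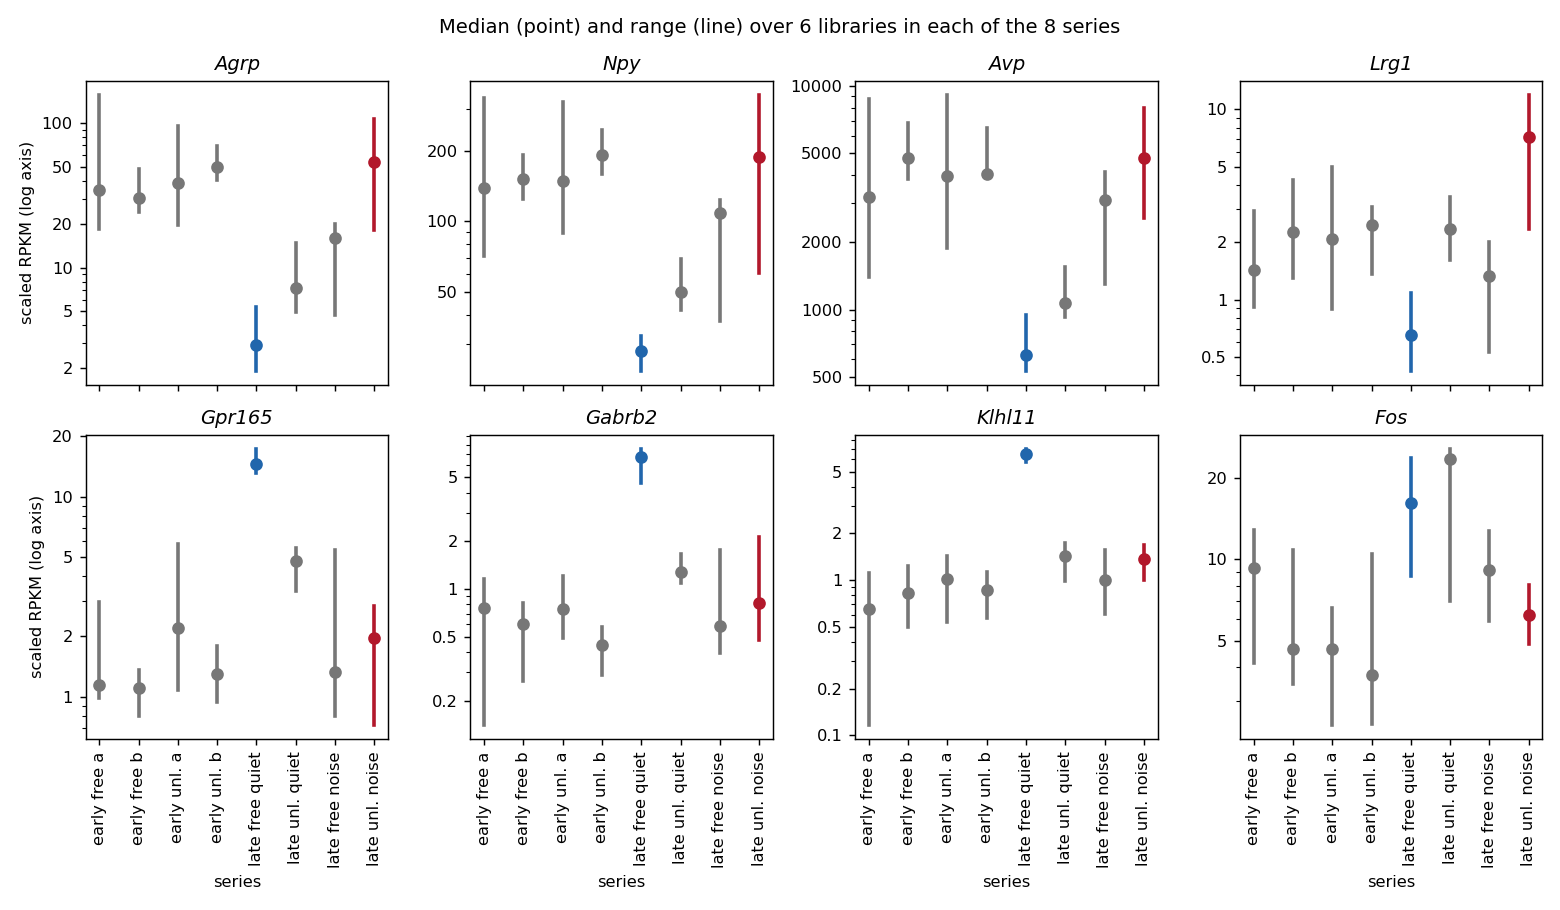
Points are medians and lines ranges over the 6 libraries of each of the 8 series, in scaled RPKM on a log axis, with the late set with all stressors in red and the late set with none in blue. For Agrp, Npy, Avp, Gpr165, Gabrb2 and Klhl11 the late set with none stands apart from the early series, and the late set with all stressors lies at or near their level. For Klhl11 its median, 1.37, is above the early medians of 0.649 to 1.015. Lrg1 is highest in the late set with all stressors.

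Differences followed gene length. Gene lengths could be matched for 13484 genes. In the shortest of 5 equal groups (exons of 255 to 2483 bp together) the median difference was 0.44, and 1709 of 2699 genes were higher and 175 lower. In the longest (7693 to 41324 bp) it was -0.39, with 306 of 2697 higher and 1720 lower. The order of the 3 groups between was the same, at 0.09, -0.06 and -0.17. Across genes, which share the same libraries, Spearman's rho with length was -0.489 and with GC content 0.391, as a description. Noise alone gave 0.40 and -0.33 in the shortest and longest groups, unloading alone 0.18 and -0.16, and the fit with the mitochondrial share as a covariate 0.29 and -0.22. Of the 12 largest rises 10 fell in the shortest group, among them Agrp, Avp, Npy and Prlh, and of the 12 largest falls 3 did. After each library's trend on length and GC was removed, 8226 of 13484 genes were called (61%), 3971 higher (29.4%) and 4255 lower (31.6%), and Agrp stood at 2.91, Avp at 1.74, Npy at 1.55, Lrg1 at 1.88, Gpr165 at -2.59 and Gabrb2 at -1.96. Prlh stood at 0.71 and Oxt at 0.67.

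**Figure D5:**
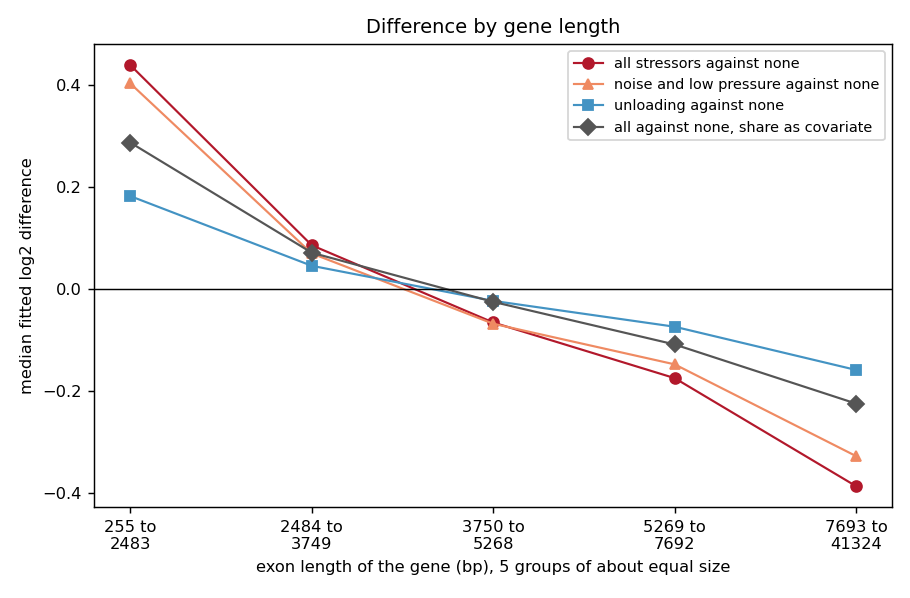
The horizontal axis gives 5 groups of genes of about equal number by exon length in bp, and the vertical axis the median fitted log2 difference in each. With all stressors the median runs from 0.44 in the shortest genes to -0.39 in the longest, noise alone runs close to it, and unloading alone and the fit with the mitochondrial share as a covariate are flatter.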

How the data were processed

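RNA-seq of pooled hypothalamus was read from 1 table of RPKM values that the authors deposited for 48 libraries and 21558 genes. CASAVA 1.8 and HISAT were used, per the submitters' processing notes; for the genome build, annotation and counting rule the sources used here give nothing, and 0 columns were left out. Deposited RPKM was divided by each library's median ratio to the genes' geometric means over nuclear genes above 1 RPKM in every library, since mitochondrial mRNAs took an unequal part of each library. Genes with a mean of at least 0.5 scaled RPKM over all libraries (13661) entered limma 3.58.1 in R 4.3.3 on log2(scaled RPKM + 0.5), with terms for series and title number, 35 residual degrees of freedom and Benjamini-Hochberg adjustment. The script was tested on simulated data. Groups came from the treatment labels.

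The members and gene lists were chosen with earlier results of these data known. Named genes were the 12 largest rises and 12 largest falls called with 1 sign in at least 5 of 6 numbers and a mean of at least 1 scaled RPKM in the higher set, up to 4 called members of each of 49 lists by smallest p, a fixed set of peptide, activity and receptor genes, and up to 5 genes per further test. Other list members are named as ends of a range, as exceptions to their list's direction or as examples chosen after their values were seen. Positions and lengths came from GENCODE M21 (GRCm38), matched by symbol, and sequences from RefSeq. Whole reads came out at 62.5% to 68.5% of low values within 0.02 of a read (4% by chance), so that the recovered depths are estimates and no count test was run. Alternatives were the deposited scale, quantile normalization, the mitochondrial share as a covariate, another pseudocount (0.1), no filter, array weights, fewer libraries, each number left out and no term for number. Leaving out high-share libraries and removing length and GC trends were added after seeing the data. Values of some list members are not reported here.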

Additional observations from a re-analysis of the deposited data

Results flagged for a closer look

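In the 6 libraries of a set, 1 library stood far from the other 5 in 6 of 88 groups looked at (43 genes and the mitochondrial share in both sets), where chance gives about 1 in 20. With all stressors these were Ifi27l2a at 38.5 scaled RPKM in number 17, Gabrb2 at 2.11 in number 17, Pcdhac2 at 0.219 in number 9 and Trh at 109.5 in number 13. With none they were S100a4 at 0.620 in number 5 and Ttr at 325 in number 17.

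Of 43 named genes looked at, 16 passed the threshold of limma for an effect of unloading that differed between noise with low pressure and quiet. Over all genes 604 of 13661 did (4.42%). Many of the 43 were chosen through comparisons that share libraries with this one, so that their share cannot be set against the one over all genes. On the log2 scale the effect under noise minus that in quiet was 2.17 for Gabrb2 and for Klhl11, 1.88 for Pcdhac2, 1.81 for Kcna3, 1.69 for Gpr165, 1.64 for Pcdhgc4, 1.498 for Sacm1l, 1.49 for Usp33, 1.31 for Cmip, 0.98 for the adhesion receptor Adgrl3, 0.93 for Mtmr9, 0.61 for the lipid kinase Pi4ka, 0.42 for the calcium pump Atp2a2 and 0.42 for Supv3l1. It was -0.87 for Hcrt and -1.28 for Npas4. Those among them that are also among the 24 largest rises and falls were taken for a difference that shares libraries with this one. Supv3l1, Atp2a2, Adgrl3, Pi4ka and Mtmr9 were named for small p-values in this test or in steps that share libraries with it. Klhl11, Hcrt and Npas4 were in the fixed set, and gene lists were chosen with earlier results of these data known. All of these values are therefore a description.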

How the results depend on the processing

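Of 211 named genes, the direction and the side of the threshold were the same in 170 with the mitochondrial share as a covariate, in 171 without the 4 high-share libraries (5541 genes called in all), in 176 of 206 with length and GC trends removed, in 196 under quantile normalization and in 199 on the deposited values, and in 205 to 211 under the other settings. All of the 24 largest rises and falls held in every setting but these: Arl10 with the covariate (limma, adjusted p = 0.0517) and Bpifa1 without the high-share libraries (limma, adjusted p = 0.11). Signs turned with the covariate for Bcas1 (-0.30), Mbp (-0.20), Mobp (-0.23), Pmch (0.49), Pomc (-0.055) and Ttr (-0.17); with length and GC trends removed for C1qa (-0.096), Gal (-0.13), Gpx1 (-0.079), Hcrt (-0.40), Mrps12 (-0.21), Pomc (-0.12), Trh (-0.070) and Uchl1 (-0.098); on the deposited values for Fkbp5 (-0.066), Srsf5 (-0.013) and Supv3l1 (-0.094). Under quantile normalization they turned for Gpi1 (-0.020), mt-Nd1 (-0.064), Pcsk1n (-0.011), Ptgds (-0.54) and Uchl1 (-0.35), without the high-share libraries for Pomc (-0.0011). Leaving out each number gave -0.031 (without number 1) to 0.29 for Fkbp5.

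Leaving out each number gave 8331 to 9506 called genes against none, 2 to 4 against noise alone, 2484 to 6669 against unloading alone and 90 to 749 for the departure from additivity. Against noise alone array weights called 73, the 24 late libraries 4, the compared series 1 and quantile normalization 4. Against unloading alone the covariate called 0. For the departure array weights called 5620, the covariate 1306 (9.56%), the late or compared series 933 and quantile normalization 980. The daily course gave 3608 with array weights and 1 with no filter. The causes were not tested.

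Without the replicate block 9117 genes were called against none, 2 against noise alone, 5321 against unloading alone and 451 for the departure. As pairs, the difference in mitochondrial share of 22.2 points had p = 0.0625 (exact sign-flip test over 6 pairs, two-sided). Same-numbered libraries of the sets correlated in their deviations by 0.198, 0.142, 0.131, 0.111, 0.133 and 0.00875 for 1, 5, 9, 13, 17 and 21, so that the numbers were taken as shared labels only.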
